A study of Bos taurus with 11 samples.

Results

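The genes described here drive DNA replication and cell division. A list of 59 such genes was matched to the array by symbol, and 49 of them were named by at least 1 probe set with exactly 1 symbol, out of 9155 genes so named in all. Where a gene had several probe sets, the one with the highest mean over the 11 arrays stood for it. The 49 comprised 20 S phase genes, 23 mitosis genes and 6 regulators used in more than 1 phase, called shared below. No probe set of that kind named MKI67, TOP2A, CDKN3, TTK, NUF2, KIF11 or PRC1 of the mitosis genes, or MCM2, GINS1 or GINS2 of the S phase genes, and these 10 were not analysed here.

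Endometrium, the lining of the uterus, came from 11 multiparous Holstein-Friesian cows slaughtered 14 ± 0.4 days after calving, with 1 Affymetrix array per cow. From day 2 after calving the mild group (5 cows) had free access to grass silage with 8 kg of concentrate a day and 1 milking a day. The severe group (6 cows) had 25 kg of silage, 4 kg of concentrate and 3 milkings a day, a regime meant to deepen negative energy balance, the state in which milk takes more energy than feed supplies. All cows were lactating after a recent calving, had been allocated at random, and averaged 4.7 lactations, and neither an unrestricted dry cow nor an earlier time point stands beside them. Values are log2 signals, and a signal is called dim if it is under 5.52, below which 40% of the probe sets have their mean, because differences there are compressed.

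A cell copies its DNA once in S phase and divides it in mitosis. At the end of G1, E2F factors switch on the enzymes that make deoxynucleotides, the MCM helicase that opens the double helix and the polymerases behind it. Later, cyclin B with the kinase CDK1 starts mitosis, kinetochore proteins tie chromosomes to the spindle, and a checkpoint delays their separation until all are attached. In the weeks after calving the endometrium is rebuilt, and its surface epithelium closes over the sites where the placenta was attached. In whole tissue, fewer dividing cells and less of these transcripts per cell cannot be told apart.

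Most cell division genes were lower on average in severe than in mild cows, but none passed the test. Of the 49 genes 47 were lower in severe cows in the mean, where 51.1% of all 9155 genes were. The median log2 difference, severe minus mild, was -0.34 over the 49 genes and -0.00378 over all genes. Limma, fitted to all 24016 probe sets with Benjamini-Hochberg adjustment, called 0% of them at an adjusted p under 0.05 and 0 of the 49, whose smallest adjusted p was 0.308. Without adjustment, 3085 probe sets (12.8%) had a p under 0.05. By the same measure 5 of the 49 genes were lower (CCNB1, ZWINT, TYMS, POLA1 and RRM1), beside 7.46% of all genes lower, and 0 of the 49 were higher, beside 8.45% of all genes. In none of the 49 did the groups separate without overlap, beside 0.437% of all genes with all severe cows lower. The count of 5 was 3 without mild 2, 18 without mild 5, 8 without severe 1 and 8 without severe 3. In the same order, 5.49%, 11.5%, 7.71% and 8.50% of all genes were lower by that measure. CCNB1, ZWINT and TYMS were among the division genes so counted whichever cow was left out. With a T and NK cell marker score as a covariate the count was 0, beside 1.40% of all genes, and markers of T and NK cells and of neutrophils were higher in severe cows in 13 of 14 and 7 of 7 cases. The median of the 49 was -0.17 without mild 2 and -0.22 without severe 4, and with 1 cow left out it ran from -0.50 to -0.17.

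**Figure D1:**
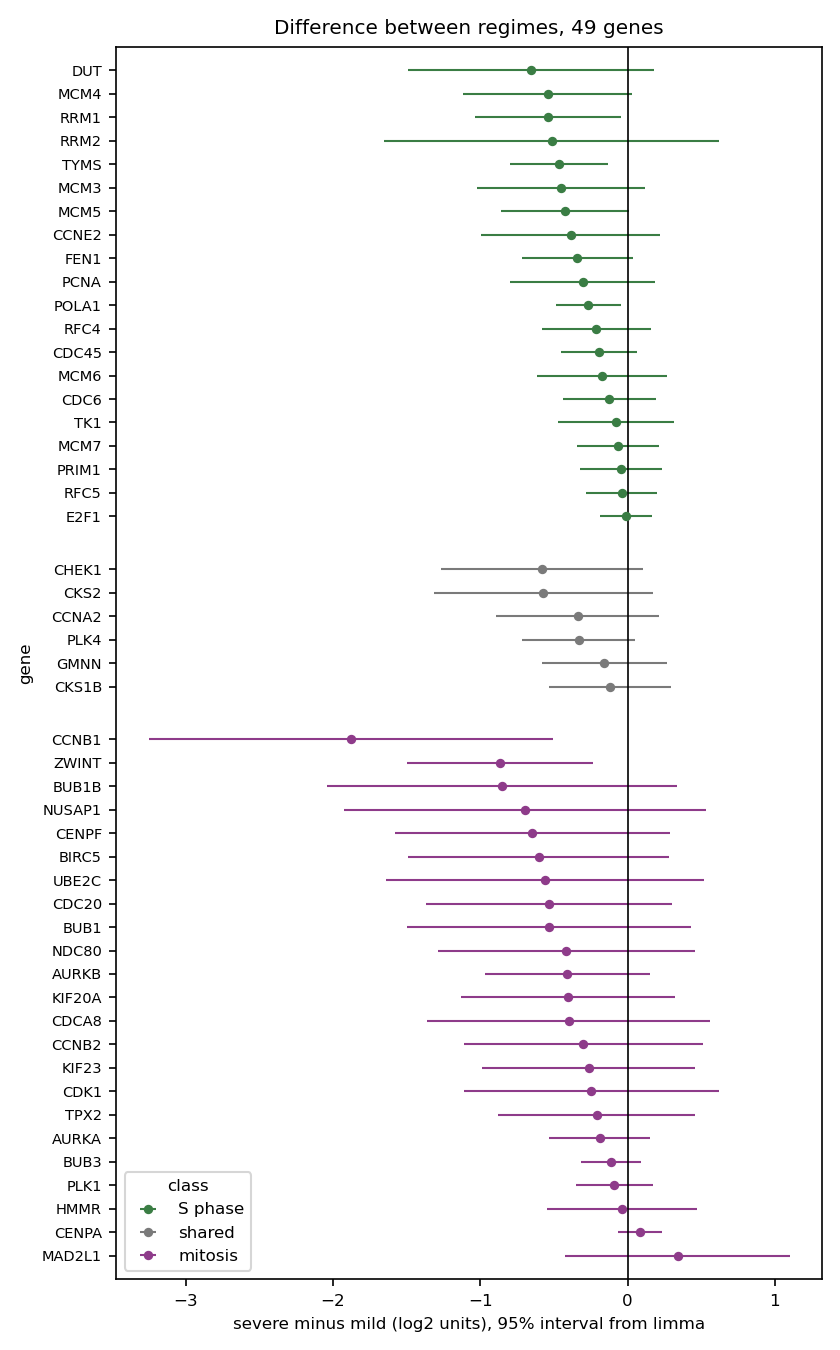
Log2 difference, severe (n = 6) minus mild (n = 5) cows, for each of the 49 genes; points are limma estimates and bars their 95% intervals, coloured by class. In 47 genes the point lies below 0, and in 44 genes the interval reaches above 0.

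Cows of 1 regime differed from each other, and did so across many of the genes together. The residual SD, the spread within groups after the group means are taken out, had a median of 0.47 log2 units over the 49 genes. Mild 2 had the highest signal in 43 of the 49 genes, and severe 4 had the lowest in 32 and severe 2 in 9. Mild 5, though in the mild group, was among the 3 lowest cows in 37 genes, beside 39 for severe 2 and 42 for severe 4. Mild 3 and mild 4 lay above the gene's mean in 44 and 41 genes, and severe 1, severe 3 and severe 5 in 32, 33 and 33. Mild 1 and severe 6 lay near the middle, above the mean in 23 and 22 genes. Each group thus held cows mostly above and cows mostly below the genes' means, though not equally far. Averaged over the 49 genes, the signal minus the gene's mean was 0.85, 0.37 and 0.24 in mild 2, 3 and 4. Among severe cows it was highest in severe 5, at 0.17. The lowest values of the groups were -0.45 in mild 5 and -0.77 in severe 4. These counts and averages describe cows, since the genes of 1 cow share its array.

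**Figure D2:**
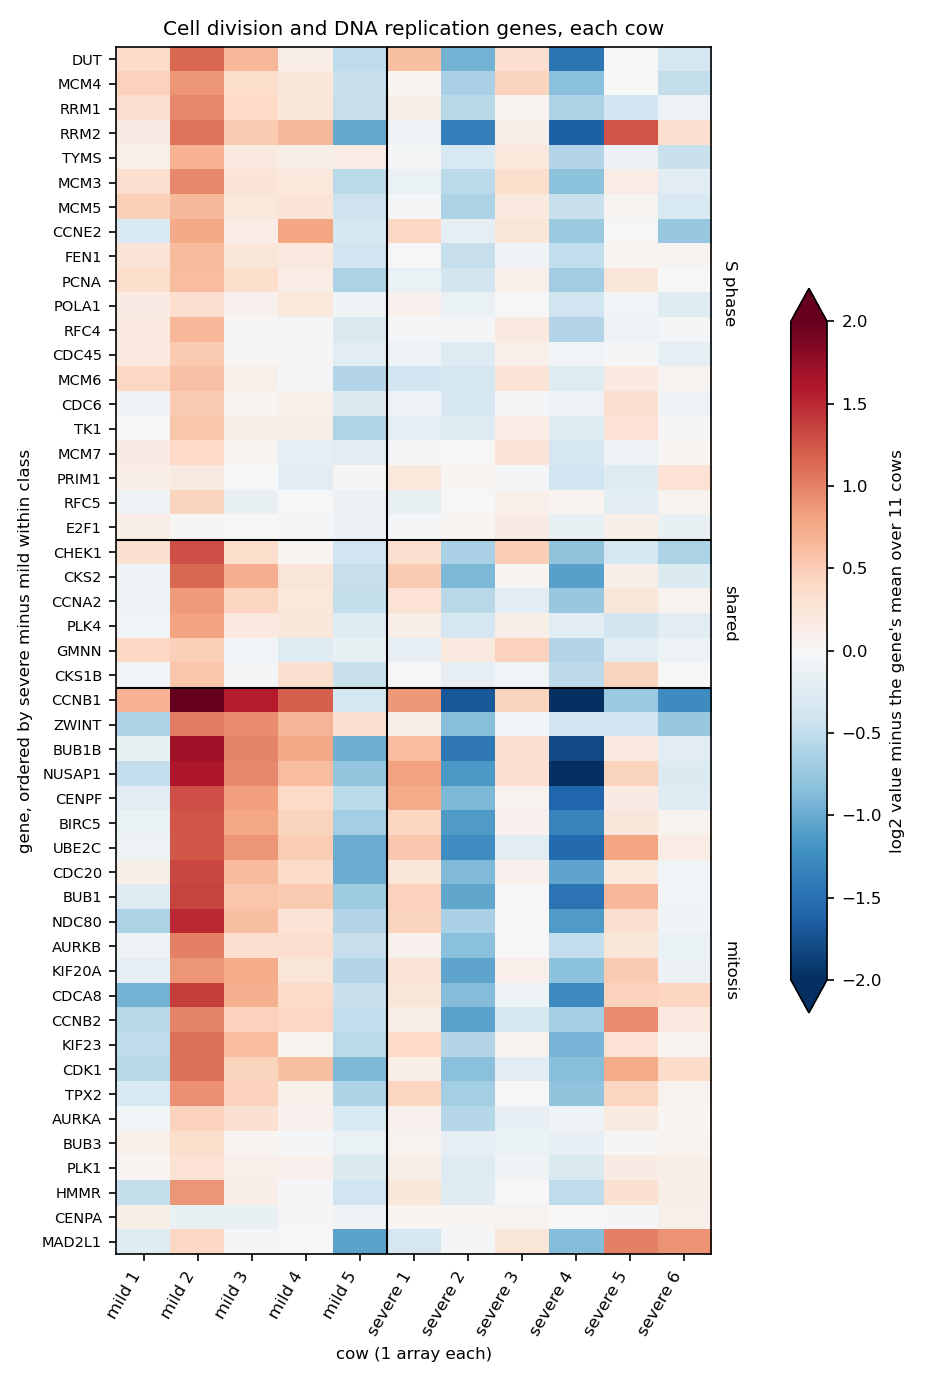
Each cell is the log2 signal of 1 gene in 1 cow minus that gene's mean over the 11 cows, with colours saturating at 2 log2 units in either direction; rows are ordered by class and by severe minus mild, columns by group. Mild 2 is red in nearly all rows, and severe 4, severe 2 and mild 5 are blue in most.

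Mitosis genes varied more between cows than S phase genes. The residual SD had a median of 0.69 log2 units over the 23 mitosis genes, 0.32 over the 20 S phase genes and 0.41 over the 6 shared genes. Over all genes that were not dim on average it was 0.197, and 21 of 23 mitosis genes and 17 of 20 S phase genes lay above that. The distance from the lowest to the highest cow had a median of 2.06 log2 units for mitosis genes and 1.21 for S phase genes. The standard error of the difference followed, with a median of 0.37 for mitosis genes and 0.18 for S phase genes, so the interval of 21 of the 49 genes reached below -1.

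S phase and mitosis genes were compared within each cow by the mean deviation of each class from its genes' means. In the 5 mild cows the S phase deviation averaged 0.16 ± 0.35 (SD), and in the 6 severe cows -0.13 ± 0.27. Mitosis genes averaged 0.23 ± 0.63 in mild cows and -0.19 ± 0.56 in severe cows. In the 5 mild cows, in order, the mitosis deviation was -0.24, 1.04, 0.56, 0.35 and -0.55. In severe cows it ran from -0.996 in severe 4 over -0.79 in severe 2 to 0.31 in severe 1 and severe 5. The groups overlapped in both classes. The median log2 difference between regimes was -0.29 over S phase genes, with 20 of 20 lower, and -0.41 over mitosis genes, with 21 of 23 lower. The mitosis median was -0.11 without mild 2, -0.26 without severe 2 and -0.23 without severe 4. With 1 cow left out it ran from -0.58 to -0.11. The S phase median stayed between -0.41 and -0.20 whichever cow was left out.

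The S phase deviation minus the mitosis deviation averaged -0.074 ± 0.37 in mild cows and 0.062 ± 0.33 in severe cows, a difference of 0.14 that was smaller than either SD. It was 0.43 and 0.19 in mild 1 and mild 5 and -0.41, -0.38 and -0.20 in mild 2, mild 3 and mild 4. In severe cows the highest values were 0.46 in severe 4 and 0.42 in severe 2, and the lowest was -0.31 in severe 1. The value was positive in the 4 cows with the lowest mitosis deviations, 2 of each group, and in severe 3. The mitosis deviation spreads more widely and is the one subtracted, so a low mitosis deviation by itself tends to make the value positive.

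**Figure D3:**
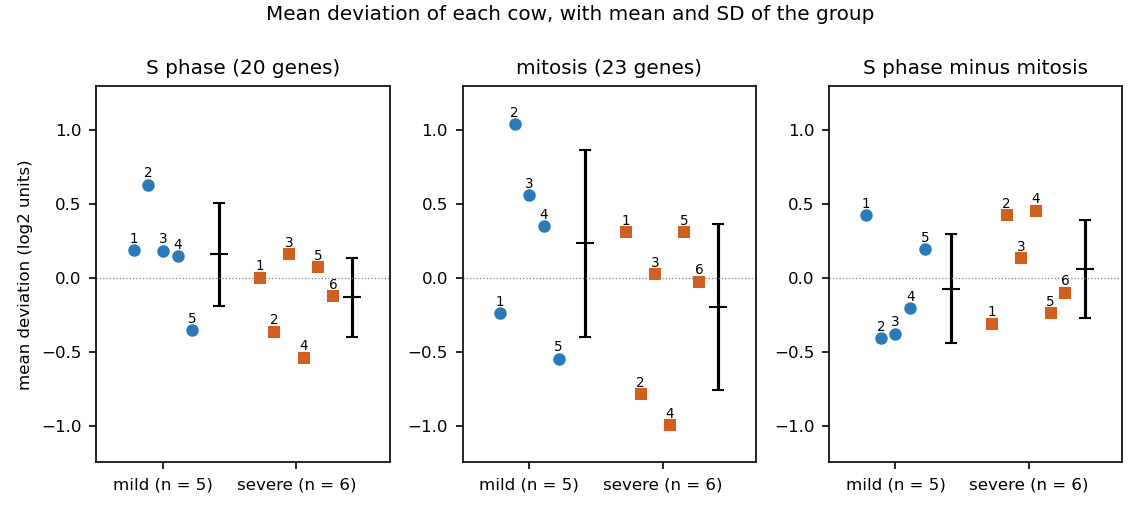
Mean deviation of each cow (log2 units) over the 20 S phase genes, over the 23 mitosis genes, and the first minus the second; numbers are the cows within their group, and bars show the group mean and SD. Groups overlap in all panels, and the mitosis values spread from -0.996 to 1.04.

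Among S phase genes, the enzymes of nucleotide supply were at a median of -0.52, which is the value of RRM2, with an SE of 0.52. Of these enzymes 5 of 5 were lower and 2 were so at an unadjusted p under 0.05, beside 51.1% and 7.46% of all genes. TYMS, thymidylate synthase, which makes the thymidine nucleotide, read 7.63, 8.23, 7.73, 7.65 and 7.69 in mild cows 1 to 5. In severe cows TYMS had a lowest value of 6.95, a median of 7.32 and a highest of 7.74. Of the 6 severe cows 5 lay below the lowest mild cow, and severe 3, the highest, overlapped. The log2 difference of TYMS was -0.46 ± 0.15 (SE), or 1.38-fold higher in mild cows (limma adjusted p = 0.308, unadjusted p = 0.0107). It was -0.35 without mild 2, and -0.24 when averaged with another TYMS probe set that was dim.

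RRM1 and RRM2 are the large and the small subunit of ribonucleotide reductase, the enzyme that turns ribonucleotides into deoxyribonucleotides. RRM1 read 9.82, 10.45, 9.89, 9.71 and 9.02 in mild cows, and 8.86, 9.24 and 9.61 as the lowest, median and highest of severe cows. Its difference was -0.54 ± 0.23 (SE, limma adjusted p = 0.362), with 2 severe cows below mild 5. RRM2 read 7.94, 8.85, 8.29, 8.42 and 6.75 in mild cows, and ran in severe cows from 6.13 over a median of 7.77 to 9.03. The highest and the lowest signal of RRM2 were thus both in severe cows, severe 5 and severe 4, and its difference of -0.52 had an SE of 0.52. DUT, which removes dUTP before it enters DNA, differed by -0.65 ± 0.38 and ranged over 2.59 log2 units between cows. TK1, thymidine kinase, differed by -0.078 ± 0.18, and by 0.051 without mild 2.

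The licensing and helicase genes were lower in 7 of 7 cases with a median of -0.19. MCM5 and MCM4, subunits of the replicative helicase, came nearest to an unadjusted p of 0.05, at 0.0530 and 0.0609. MCM5 read 7.57, 7.75, 7.31, 7.35 and 6.68 in mild cows and 6.47, 6.94 and 7.29 as the lowest, median and highest of severe cows. MCM4 read 8.55, 8.98, 8.44, 8.32 and 7.65 in mild cows, and 7.25, 7.85 and 8.53 in the same order in severe cows. Both overlapped through mild 5, the lowest mild cow, and severe 3, the highest severe cow. Their differences were -0.43 ± 0.20 and -0.54 ± 0.26 (SE), with limma adjusted p of 0.394 and 0.415. MCM3 differed by -0.45 ± 0.26, MCM6 by -0.18 ± 0.20 and MCM7 by -0.066 ± 0.13, so subunits of the same ring had unequal mean differences, with intervals that overlap. The helicase partner CDC45 differed by -0.19, and CDC6, the loader of the helicase, was dim in all cows.

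Polymerase, clamp and loader genes were lower in 6 of 6 cases, with a median of -0.24. POLA1, the catalytic subunit of the polymerase that starts new strands, read 7.27, 7.45, 7.19, 7.32 and 7.03 in mild cows and 6.72, 7.01 and 7.19 as the lowest, median and highest of severe cows. It varied little between cows, over 0.73 log2 units in all, and 3 severe cows lay below the lowest mild cow. Its difference was -0.27 ± 0.10 (SE), a 1.20-fold difference (limma adjusted p = 0.335), and its other probe set gave -0.18 ± 0.091. FEN1, which trims the flaps of lagging strand fragments, read 8.01, 8.37, 7.99, 7.94 and 7.36 against 7.25, 7.71 and 7.80 in the lowest, median and highest severe cow, a difference of -0.34 ± 0.17 (SE, limma adjusted p = 0.434). PCNA, the sliding clamp that holds polymerases on DNA and a common marker of replicating cells, read 9.90, 10.17, 9.89, 9.69 and 8.90 in mild cows. In severe cows PCNA ran from 8.84 over a median of 9.48 to 9.78, a difference of -0.31 ± 0.22 with wide overlap. The clamp loader subunits RFC4 and RFC5 differed by -0.21 and -0.040. PRIM1, the primase, and E2F1 were dim in all cows, as was CDC6, and CCNE2, the cyclin of the G1 to S step, was dim in 6.

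In mitosis genes the difference with the greatest size was that of CCNB1, cyclin B1, the partner that activates CDK1. CCNB1 read 8.38, 9.70, 9.25, 8.88 and 7.34 in mild cows. In severe cows it read 8.56, 5.99, 8.14, 4.93, 6.94 and 6.42, so that 4 of 6 lay below the lowest mild cow while severe 1 and severe 3 lay among the mild cows. The group means were 8.71 ± 0.91 (SD, n = 5) and 6.83 ± 1.35 (SD, n = 6), and the difference of -1.88 ± 0.63 (SE) was the most negative of all 9155 genes in the deposited values. Only 1 probe set named CCNB1, and its residual SD of 1.18 was the largest of the 49 genes. Its limma adjusted p was 0.308 (unadjusted p = 0.0117) and its 95% interval ran from -3.25 to -0.50. Severe 4 was dim, so the size is not exact. Leaving out each cow in turn gave differences from -2.22 to -1.50.

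CCNB2 and CDK1, which act with or beside CCNB1, had smaller differences. CDK1 read 6.77, 8.43, 7.77, 7.92 and 6.43 in mild cows and 7.46, 6.49, 7.11, 6.48, 8.07 and 7.69 in severe cows, a difference of -0.25 ± 0.40 (SE), and CCNB2, dim in 4 cows, differed by -0.30 ± 0.37. With 1 cow left out CDK1 ran from -0.51 (without mild 5) to -0.0049 (without mild 2) and CCNB2 from -0.51 (without severe 5) to -0.094 (without mild 2). CDK1 was at -0.10 without severe 2, -0.098 without severe 4, -0.13 without mild 4, -0.42 without mild 1 and -0.42 without severe 5, and CCNB2 at -0.11 without severe 2, -0.19 without severe 4, -0.48 without mild 1 and -0.46 without mild 5. Against each gene's own mean, CCNB1 stood 0.74 log2 units lower in severe 5 and 1.27 lower in severe 6, while CDK1 in these cows stood 0.75 and 0.36 higher. In the same 2 cows CCNB2 stood 0.94 and 0.19 higher and MAD2L1, a spindle checkpoint protein, 1.01 and 0.89 higher. The CCNB1 deviation minus the CDK1 deviation was positive in all 5 mild cows, from 0.56 to 1.26, and in severe 1 (0.74) and severe 3 (0.67), and it was -0.85, -1.90, -1.49 and -1.63 in severe cows 2, 4, 5 and 6. These comparisons were chosen after the values were seen, rest on 1 probe set for each gene, and carry no test.

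**Figure D4:**
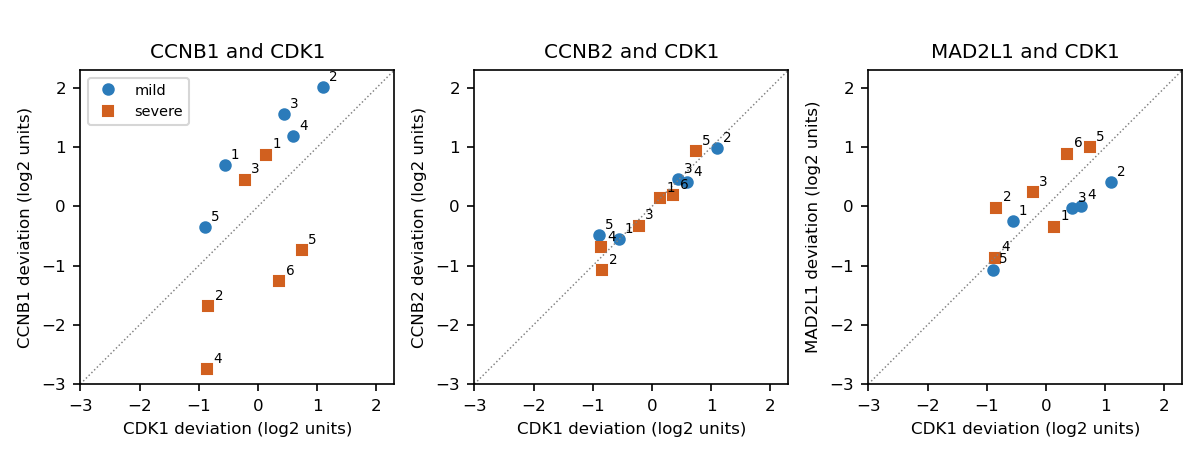
Deviation of CCNB1, CCNB2 and MAD2L1 from their means over 11 cows (y axes, log2 units) against that of CDK1 (x axes, log2 units); numbers are cows within their group, and the dotted line marks equal deviations. CCNB2, dim in 4 cows, lies nearer the line than CCNB1 in all cows, and farthest from it in mild 5 (-0.48, with CDK1 at -0.90). CCNB1 lies below the line in severe 2, 4, 5 and 6 by 0.85 to 1.90.

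Kinetochore genes differed by a median of -0.53, with 3 of 4 lower. ZWINT, which links the kinetochore to the checkpoint, read 6.38, 8.04, 7.95, 7.68 and 7.32 in mild cows and 6.15, 6.60 and 7.12 as the lowest, median and highest of severe cows. Apart from mild 1, which lay among the severe cows, each mild cow was above all severe cows. The difference was -0.87 ± 0.29 (SE), a 1.82-fold difference (limma adjusted p = 0.308, unadjusted p = 0.0112). CENPF, a large kinetochore protein of G2 and mitosis, read 7.29, 8.80, 8.35, 7.89 and 6.97 against 5.92, 7.42 and 8.25 in the lowest, median and highest severe cow. Of its severe cows 2 lay below the lowest mild cow, mild 2 and mild 3 lay above the highest severe cow, and its difference was -0.65 ± 0.43. NDC80, the microtubule coupler, differed by -0.42 and was dim in 6 cows, and CENPA, the histone of the centromere, was dim in all 11.

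**Figure D5:**
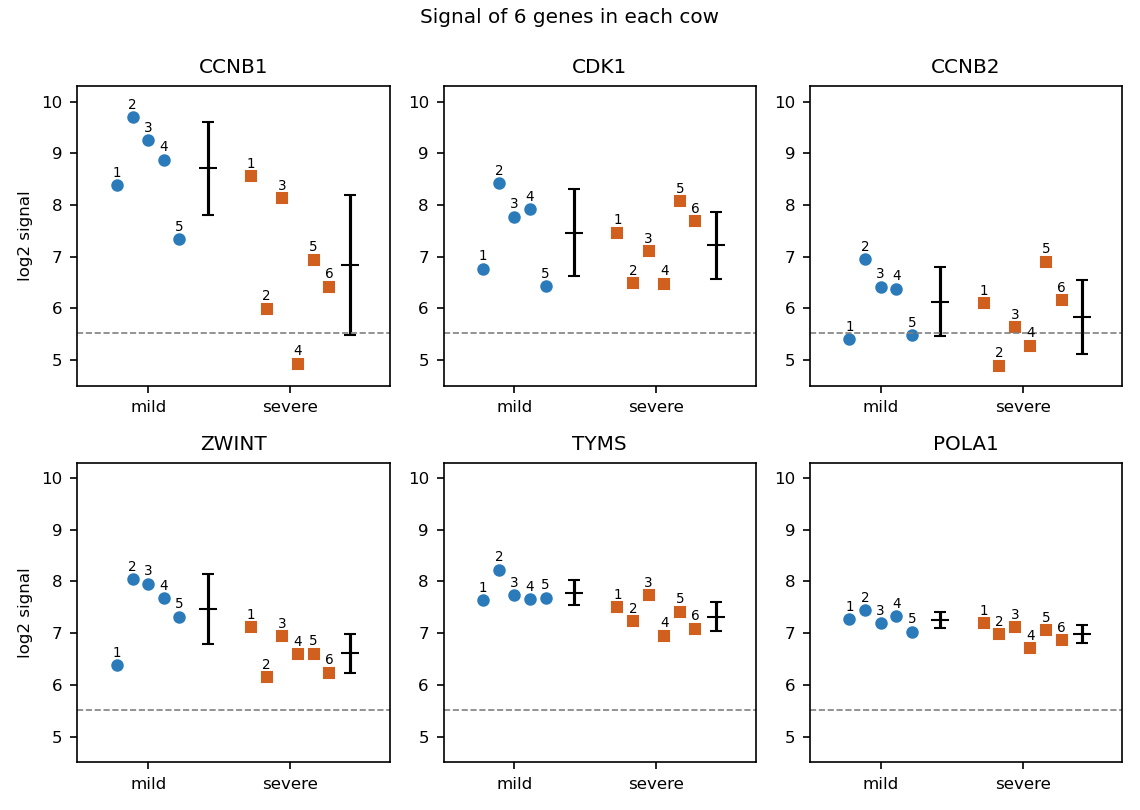
Log2 signal of CCNB1, CDK1, CCNB2, ZWINT, TYMS and POLA1 in each cow (numbers within the group), with group mean and SD; the dashed line at 5.52 marks dim signals. In CCNB1 4 of 6 severe cows lie below all mild cows, in TYMS 5 of 6, in CCNB2 2 of 6 and in CDK1 0 of 6.

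Of the mitotic kinases and the passenger complex that steers chromosome attachment and cytokinesis, 5 of 5 were lower, with a median of -0.40. AURKB, the kinase of that complex, read 6.95, 8.06, 7.38, 7.39 and 6.59 in mild cows and 6.22, 6.99 and 7.29 as the lowest, median and highest of severe cows. BIRC5, survivin, a subunit of the same complex, read 6.83, 8.22, 7.74, 7.41 and 6.29 against 5.63, 7.05 and 7.40. In both genes mild 2 was highest and severe 2 and severe 4 lay below the lowest mild cow. Their differences were -0.41 ± 0.26 and -0.60 ± 0.41 (SE), with limma adjusted p of 0.525 and 0.551. AURKA and PLK1, kinases of the spindle poles, differed by -0.19 and -0.089, and PLK1 ranged over 0.59 log2 units between cows.

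The spindle checkpoint and anaphase genes were lower in 5 of 6 cases, with a median of -0.53 and wide spread. BUB1B, the checkpoint protein BubR1, read 6.16, 8.00, 7.31, 7.07 and 5.34 in mild cows and 4.51, 6.29 and 6.92 as the lowest, median and highest of severe cows, with 3 cows dim, and differed by -0.85 ± 0.54. BUB1 differed by -0.53, CDC20, the activator of the anaphase promoting complex, by -0.54, and UBE2C, its ubiquitin conjugating enzyme, by -0.56. MAD2L1 was higher in severe cows in the mean, by 0.34 ± 0.35, and its highest values were 8.01 and 7.90 in severe 5 and severe 6. BUB3 varied over 0.52 log2 units and differed by -0.12. Among spindle and cytokinesis genes 5 of 5 were lower, from NUSAP1, a microtubule bundling protein, at -0.70 ± 0.56 to HMMR at -0.037 ± 0.23, and HMMR was at 0.18 without mild 2.

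All 6 shared regulators were lower in the mean, with a median of -0.33. PLK4, which starts centriole duplication, read 6.37, 7.24, 6.62, 6.64 and 6.16 in mild cows and 6.06, 6.19 and 6.56 as the lowest, median and highest of severe cows, a difference of -0.33 ± 0.18 (SE, limma adjusted p = 0.453). CHEK1, the kinase of the replication checkpoint, read 6.94, 7.90, 6.96, 6.65 and 6.21 against 5.81, 6.14 and 7.11, a difference of -0.58 ± 0.31. CKS2, a small subunit that binds cyclin dependent kinases, read 8.47, 9.71, 9.28, 8.81 and 8.10 against 7.48, 8.44 and 9.09, a difference of -0.57 ± 0.34. In each of these the groups overlapped, and mild 2 was highest. GMNN, geminin, and CKS1B differed by -0.16 and -0.12, and CCNA2, cyclin A2, was dim in 10 cows.

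Of the 49 genes 16 had further probe sets, 19 in all. Of these 13 were dim on average, 2 had the opposite sign, both of them dim, and 0 had an unadjusted p under 0.05. Probe sets of DUT, MCM6, RFC5, AURKB and TPX2 that were not dim gave differences of -0.59, -0.30, -0.052, -0.69 and -0.35, in the direction of the ones used.

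Co-variation over the 11 cows was measured for 3 pairs, of which MCM3 with MCM6 was planned and the others, chosen after seeing the data, replaced pairs that held TOP2A. MCM3 and MCM6, subunits of 1 helicase, had a Pearson r of 0.86 (permutation p = 0.000910, adjusted over 3 pairs 0.00273) and a Spearman rho of 0.83 (permutation p = 0.00272, adjusted 0.00816). Without mild 2 and severe 4 r was 0.85, and within the 6 severe cows it was 0.75 (exact p = 0.101, adjusted 0.304). The permutations over 11 cows ignored the regimes, so their p do not separate co-variation from the difference between regimes. CCNB1 and CDK1 had an r of 0.596 (permutation p = 0.0540, adjusted 0.0618) and a rho of 0.600 (permutation p = 0.0566, adjusted 0.0716). With 1 cow left out this r ran from 0.48 to 0.71. It was 0.30 without severe 2 and severe 4, the cows farthest from the CCNB1 median. Leaving out the farthest cows narrows the range, which by itself tends to lower r, so no conclusion is drawn from it. MCM6 and CDK1 had an r of 0.585 (permutation p = 0.0618) and a rho of 0.57 (permutation p = 0.0716), and r was 0.25 without mild 2 and mild 5. Within severe cows these r were 0.50 and 0.55 (exact p = 0.317 and 0.244, both adjusted 0.317).

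The 5 genes most like CDK1 over the 11 cows, among 7133 genes that were not dim, were SHCBP1 (r = 0.97), CCNB2 (0.96), KIF4A, ASF1B and FBXO5 (0.94 each). These values are the highest of many and are given as a description. Among the members not dim on average, TPX2, UBE2C, CDCA8, BUB1, PLK1, RRM2, KIF20A and KIF23 also had an r with CDK1 above 0.90. CCNB1, ZWINT and TYMS had one of 0.60, 0.53 and 0.47. The lowest among the members not dim on average were MCM7, RFC5 and GMNN, at 0.41, 0.27 and 0.11. Members dim on average were not compared.

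The rest of the cell cycle was described through 6 further lists, 98 measured genes in all, of which 0 passed the adjusted test. At an unadjusted p under 0.05, 11 were lower and 2 higher, beside 7.46% and 8.45% of all genes. That count of 11 was 5 without mild 2, 6 without mild 4 and 27 without mild 5. It was 7 without severe 2, 6 without severe 4 and 7 without severe 6. In the same order, 5.49%, 5.21%, 11.5%, 5.20%, 5.07% and 5.83% of all genes were lower. Other replication factors were lower in 25 of 28 cases, with a median of -0.19, 7 at an unadjusted p under 0.05 and POLD4 higher at 0.35. POLD2, a subunit of DNA polymerase delta, averaged 8.01 ± 0.31 in severe and 8.46 ± 0.15 in mild cows, a difference of -0.45 ± 0.14 (SE, limma adjusted p = 0.307), and 5 of 6 severe cows lay below the lowest mild cow. RPA3 and RPA1, subunits of the complex that coats single strands, differed by -0.52 ± 0.17 and -0.17 ± 0.063, with 6 of 6 severe cows below the mild mean. Other mitosis genes had a median of -0.17 (-0.088 without mild 2, -0.31 without mild 5), with 23 of 31 lower, and SKA2, SKA1 and CDC23 differed by -0.27, -0.86 and -0.26, SKA1 being dim in 8 cows.

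Among G1 cyclins and kinases 10 of 12 were lower, with a median of -0.19 (-0.13 without mild 2 and without severe 4). CDK4, the kinase of D type cyclins, read 9.96, 9.96, 9.92, 9.79 and 9.59 in mild cows and 9.43, 9.50 and 9.72 as the lowest, median and highest of severe cows, so that 5 of 6 severe cows lay below the lowest mild cow. Its difference was -0.32 ± 0.084 (SE, limma adjusted p = 0.285). CDK7 differed by -0.40 ± 0.17 and CCND1, cyclin D1, by -0.50 ± 0.27. Inhibitors and genes of quiescence had a median of 0.028, with 6 of 14 lower, and the median ran from -0.0097 without mild 2 to 0.12 without mild 5. It was also below 0 without severe 1, severe 2 or severe 4 and after a second quantile normalization. RBL2, a pocket protein that represses cell cycle genes in resting cells, averaged 8.05 ± 0.22 in severe and 7.77 ± 0.09 in mild cows, a difference of 0.28 ± 0.11 (limma adjusted p = 0.334), with 6 of 6 severe cows above the mild mean. BTG1, an antiproliferative factor, and RB1, the retinoblastoma protein, differed by 0.35 ± 0.18 and 0.23 ± 0.14. The E2F, FOXM1 and MuvB factors had a median of -0.039 over 10 genes, with TFDP1, TFDP2 (dim in all cows) and E2F5 at -0.22, -0.20 and 0.10, and 3 genes of the DNA damage checkpoint, RAD17, BRCA1 (dim in 10 cows) and HUS1, were at 0.14, -0.14 and -0.063.

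Markers of the cells in the samples moved between the groups as well. T and NK cell markers were higher in severe cows in 13 of 14 cases, with a summed signal (log2 of the sum) of 9.61 to 10.48 in mild and 10.22 to 11.33 in severe cows. All 6 markers of B and plasma cells, 6 of macrophages and 7 of neutrophils were higher in severe cows in the mean, the summed neutrophil signal being 8.51 to 11.03 against 11.91 to 14.78. The mean deviation of the neutrophil markers was lowest in mild 2 (-1.87) and highest in severe 4 (2.37), where the mean deviation of the 49 division genes was 0.85 and -0.77. It was next lowest in mild 5 (-1.40) and next highest in severe 5 (1.88). There the mean deviation of the division genes was -0.45 and 0.17, so these cows ran the other way. The neutrophil and division gene deviations had opposite signs in mild 3, mild 4, severe 1, severe 2 and severe 6 as well. They had the same sign in mild 1 and severe 3. Whether they were related over the cows was not tested, and no neutrophil score was fitted as a covariate. Epithelial markers were lower in 8 of 13 cases, with a summed signal of 12.24 to 13.15 against 11.16 to 12.84, and stromal markers, endothelial markers, smooth muscle markers and red blood cell markers were lower in 5 of 10, 3 of 9, 6 of 7 and 3 of 4. CD4, KRT8, KDR and the 4 red blood cell markers were dim in all cows. With the epithelial score as a covariate the same 5 division genes were lower at an unadjusted p under 0.05, beside 7.35% of all genes. With the T and NK cell score, under which 0 had such a p, 45 of 49 were lower in the mean with a median of -0.17. The part of the other cells was not tested. RNA quality was read from how much more signal the 3' than the 5' probe sets of the control genes gave, on average 0.56 ± 0.07 log2 units in mild and 0.59 ± 0.14 in severe cows. Of the cows with low mitosis signals severe 2 had the highest value, 0.82, and severe 4 the lowest, 0.42.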

How the data were processed

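Log2 values per probe set, 1 array for each of 11 endometria, are used as the authors deposited them, and RMA is what the submitters' processing notes name. They run from 2.63 to 14.6. No source used here gives further steps, such as filters or a software version. Each array has the same median, 6.20, so that a shift of the whole transcriptome is out of sight.

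Of 24128 probe sets, 112 controls were left out. The platform annotation gave 13292 of the 24016 tested 1 symbol and 86 several, and did not list 10638. A RefSeq gene table (ARS-UCD2.0, for names) matched 13263 and renamed 0. The regimes were set side by side, two-sided, with lmFit and eBayes of limma (version 3.58.1, under R 4.3.3), the source of every gene's p, and Benjamini-Hochberg adjustment covered all 24016 at a threshold of 0.05. The code was tested on simulated data. Intervals are 95% intervals. Correlations used 100000 resamples, or exact enumeration within 6 cows, two-sided. A cow's deviation for a class is its mean distance from the genes' means over the 11 cows.

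Genes, lists and tests were chosen with earlier results of these data known, so lists carry no p. Mild cows' values, with the severe cows' lowest, median and highest (for CCNB1 and CDK1 each), are given for the 6 S phase, 6 mitosis and 3 shared genes with the smallest p and for CDK1, CCNB1, PCNA and RRM2. Each further list names the 3 genes with the smallest p, and POLD4 was named after its value was seen. Alternatives were the dimmest 40% left out, a second quantile normalization, a common median, trended and robust eBayes, array weights, epithelial or T and NK cell scores as covariates, the mean of a gene's probe sets, each cow left out, and mild 2 with severe 5 left out. The number of arrays limits the precision.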

Additional observations from a re-analysis of the deposited data

Results flagged for a closer look

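In 3 of 108 groups of values (49 genes and 5 class measures in each regime) 1 cow stood far from the others of its group, where chance alone gives about 5.4. TYMS in mild 2 was 8.23, next to 7.73 in the nearest mild cow, and without mild 2 the log2 difference of TYMS was -0.35 in place of -0.46. RFC5 in mild 2 was 8.58, next to 8.15, and its difference of -0.040 was 0.066 without that cow. RFC4 in severe 4 was 6.89, the nearest severe cow being at 7.39.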

How the results depend on the processing

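Over 20 refits the count of division genes lower in the mean stayed between 41 and 47, the 41 being of the 42 left without dim probe sets, and each class median stayed below 0, between -0.58 and -0.11. At an unadjusted p under 0.05 the 5 genes became 9 with array weights, 0 with the T and NK cell score as a covariate and 3 without mild 2 and severe 5, and in the fit as reported 0 of the 49 had a p under 0.01. The 11 genes of the further lists became 2 with the T and NK cell score, which also moved the G1 list's median to -0.077, and 6 without mild 2 and severe 5. With 1 cow left out, the genes of the 49 ranged from 3 to 18 and those of the further lists from 5 to 27. The share of all genes lower then ranged from 5.07% (without severe 4) to 11.5% (without mild 5). The probe sets at an adjusted p under 0.05 then ranged from 0 to 16 (16 without severe 1, 2 without severe 3). The median of the inhibitors and quiescence list turned in sign (-0.0097 to 0.12), as did that of the DNA damage checkpoint (-0.13 to 0.032). The difference in S phase minus mitosis ranged from 0.05 to 0.26.

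Genes with small differences turned in sign. RFC5 was at 0.015 with array weights, 0.080 with the T and NK cell score and 0.10 without mild 2 and severe 5, HMMR at 0.062 with that score and 0.12 without those cows, the gene BRCA1 at 0.00755 with that score, and MCM7 and PRIM1 at 0.038 and 0.037 without those cows. With 1 cow left out E2F1 ran from -0.044 to 0.022, MCM7 from -0.13 to 0.022, RFC5 from -0.082 to 0.066, TK1 from -0.24 to 0.051, HMMR from -0.16 to 0.18, CKS1B from -0.25 to 0.00330, HUS1 from -0.13 to 0.032 and PRIM1 from -0.11 to 0.027. The cause was not tested. No paired analysis was possible because the labels give no numbers shared between the groups.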

Other observations

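The 25 genes most like CDK1 over the 11 cows were taken from genes not dim on average. Of these 25, 9 were among the 49 division genes, 6 were in the further cell cycle lists and 10 in neither. Those 10 were SHCBP1, ASF1B, FBXO5, PCLAF, CDCA2, UBE2S, NDUFV2, H2AZ1, BCS1L and LMNB1, with Pearson r from 0.90 to 0.97. Their log2 differences between regimes ran from -0.49 in PCLAF to -0.069 in NDUFV2, with unadjusted p between 0.107 and 0.797. With the group means removed first, r with CDK1 was 0.97 for SHCBP1 and 0.96 for CCNB2.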
